A study of Mus musculus with 72 samples.

Results

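Acyl-CoA thioesterases were followed through the livers of mice with and without a liver clock and with and without gut microbes. The group held 7 genes of the 55573 listed in the count table, namely *Acot1*, *Acot2*, *Acot3*, *Acot4*, *Acot8*, *Acot12* and *Acot13*. They were chosen by name, as the rows whose Ensembl identifier maps to these symbols, and all 7 were found. Of these, 6 had counts in each of the 72 libraries and *Acot3* had none in 1 library.

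These enzymes hydrolyze acyl-CoA to free fatty acid and CoA, the opposite of the activation step run by acyl-CoA synthetases. They set the balance between acyl-CoA and free CoA in the cytosol, mitochondria and peroxisomes, and in liver several are known targets of PPARA, the nuclear receptor that turns on fatty acid oxidation during fasting. *Acot1* encodes a cytosolic and *Acot2* a mitochondrial enzyme for long-chain acyl-CoA. *Acot3*, *Acot4* and *Acot8* encode peroxisomal enzymes, *Acot4* acting on succinyl-CoA among other substrates. *Acot12* encodes a cytosolic acetyl-CoA hydrolase, and *Acot13* (also called Them2) an enzyme that is found with mitochondria and binds phosphatidylcholine transfer protein.

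RNA was sequenced from whole liver of male C57BL/6 mice that all carried loxP-flanked *Bmal1* alleles (*Arntl* in the count table). WT mice were *Bmal1* fl/fl without Cre, and LKO mice were *Bmal1* fl/fl with *Albumin-cre*, which acts in hepatocytes. The paper describes the deletion as specific to liver, with expression in brain kept. Which other liver cells kept the gene was not tested here. Both genotypes were kept specific-pathogen free (SPF), with a gut microbiota, or germ free (GF), without one, on chow. Livers were taken at ZT2, ZT6, ZT10, ZT14, ZT18 and ZT22, zeitgeber time in hours after lights on, from 3 mice per group and time. This gave 18 libraries of each genotype under each microbial status. The total count per library was 17369927 to 22076113. Values below are counts per 1000000 counts of a library (CPM), scaled by edgeR's TMM factors, and a gene was called where the quasi-likelihood test of edgeR gave a Benjamini-Hochberg adjusted p under 0.05. In bulk tissue, fewer cells of a type and less RNA per cell cannot be told apart.

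A few libraries went against their labels. *Npas2*, a clock gene that is higher without *Bmal1*, had 14.4 CPM or more in 16 SPF LKO libraries. The 2 others, with the labels SPF LKO ZT14 replicate 2 and SPF LKO ZT18 replicate 1, had 0.221 and 1.83 CPM, within the SPF WT range of 0 to 9.89 CPM. Across genes, those 2 libraries were most like the SPF WT mean of their own ZT, with r of 0.62 and 0.65 against -0.19 and -0.11 for their own group. The library labelled SPF WT ZT14 replicate 3 was most like GF WT ZT10 (r of 0.59 against 0.30), and that with the label GF WT ZT6 replicate 3 most like SPF WT ZT18 (r of 0.55 against 0.22). By whole group of 18, that SPF WT library was nearly level between GF WT and its own (r of 0.42 and 0.41). These 4, set apart in earlier work on these data, were kept as labelled. The main results of the 7 thioesterases that move without them are given both ways, and the counts from gene lists only in part. In all, 8 of the 72 libraries were most like a mean of another genotype or microbial status, and the other 4 kept their genotype and were used throughout. They were SPF LKO ZT14 replicate 3 (most like GF LKO ZT14, r of 0.52 against 0.18), SPF LKO ZT18 replicate 3 (GF LKO ZT22, 0.47 against 0.28), SPF WT ZT22 replicate 1 (GF WT ZT22, 0.42 against 0.36) and SPF WT ZT18 replicate 3 (GF WT ZT18, 0.48 against 0.45). *Arntl* itself is counted over the whole gene, which does not single out the deleted part, and had a median of 15.5 CPM in SPF WT, 11.6 CPM in SPF LKO, 18.9 CPM in GF WT and 10.1 CPM in GF LKO. All 7 hepatocyte markers were present. Albumin (*Alb*) had a median of 83739 CPM in SPF WT, 36376 in SPF LKO, 103907 in GF WT and 32178 in GF LKO, while the LKO median of the other 6 hepatocyte markers was 0.813 to 1.18 times the WT median. The summed CPM of 6 Kupffer cell markers had a median of 163 in SPF WT, 138 in SPF LKO, 149 in GF WT and 128 in GF LKO. That of 4 bile duct markers was 7.999, 13.5, 6.56 and 9.69 in the same order, and the 4 pancreas markers had a median count of 0. The part of these marker levels in the thioesterase results was not tested.

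*Acot2*, *Acot1*, *Acot4* and *Acot3* lie in that order on the plus strand of chromosome 12 (GRCm38), followed by *Acot5* and *Acot6*. *Acot2* spans 83987861 to 83993873, *Acot1* 84009490 to 84018371, *Acot4* 84038379 to 84048601 and *Acot3* 84052144 to 84060402. The other 3 lie apart, *Acot8* on chromosome 2 (164792765 to 164804882, minus strand), *Acot12* on chromosome 13 (91741512 to 91786148, plus strand) and *Acot13* on chromosome 13 (24817948 to 24831540, minus strand). For the 4 chromosome 12 genes, all lower in GF LKO livers, the 250 bases before the RefSeq start are shown (RefSeq sequence, build GRCm38.p6). *Acot12*, which did not pass that test, is shown for comparison. *Acot8* and *Acot13* were lower in GF LKO livers as well and are not shown. The *Acot8* window held none of the elements searched below, and no RefSeq window of *Acot13* was at hand. Capitals mark the E-box CACGTG, the element that CLOCK and BMAL1 bind, and the nuclear receptor hexamer AGGTCA or its reverse complement.

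*Acot2*, chr12:83987611-83987860, plus strand: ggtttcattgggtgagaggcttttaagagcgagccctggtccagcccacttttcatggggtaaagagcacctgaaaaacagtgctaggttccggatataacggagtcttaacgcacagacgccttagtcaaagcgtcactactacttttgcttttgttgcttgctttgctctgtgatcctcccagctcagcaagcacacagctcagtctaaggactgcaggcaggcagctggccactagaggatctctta

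*Acot1*, chr12:84009252-84009501, plus strand: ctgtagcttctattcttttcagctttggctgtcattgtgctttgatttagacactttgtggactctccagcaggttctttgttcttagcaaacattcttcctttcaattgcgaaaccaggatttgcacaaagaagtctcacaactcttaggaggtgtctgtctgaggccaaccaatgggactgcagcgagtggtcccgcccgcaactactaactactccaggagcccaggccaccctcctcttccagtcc

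*Acot4*, chr12:84038129-84038378, plus strand: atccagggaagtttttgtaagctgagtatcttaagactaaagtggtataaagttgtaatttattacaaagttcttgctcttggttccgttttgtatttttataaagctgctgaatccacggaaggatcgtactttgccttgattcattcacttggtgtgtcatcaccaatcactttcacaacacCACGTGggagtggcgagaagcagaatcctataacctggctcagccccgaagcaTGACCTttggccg

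*Acot3*, chr12:84051894-84052143, plus strand: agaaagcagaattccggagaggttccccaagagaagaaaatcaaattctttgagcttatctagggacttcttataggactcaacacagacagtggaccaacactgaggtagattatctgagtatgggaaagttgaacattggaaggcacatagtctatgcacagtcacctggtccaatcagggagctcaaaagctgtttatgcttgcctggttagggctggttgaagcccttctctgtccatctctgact

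*Acot12*, chr13:91741271-91741520, plus strand: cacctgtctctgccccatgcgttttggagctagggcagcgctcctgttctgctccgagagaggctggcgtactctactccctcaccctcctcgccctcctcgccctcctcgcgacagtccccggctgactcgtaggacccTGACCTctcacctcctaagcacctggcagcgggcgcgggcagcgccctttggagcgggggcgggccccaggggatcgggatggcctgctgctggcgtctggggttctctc

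The E-box CACGTG was found only in the *Acot4* window among these 5, at 66 to 61 bases before the start, and 6.02% of the 32851 mouse promoter windows of this length hold it on either strand. The hexamer AGGTCA was found on the minus strand of *Acot4*, 13 to 8 bases before the start, and of *Acot12*, 110 to 105 bases before the start, against 14.0% of all windows. The direct repeat of that hexamer with 1 base between the copies, which PPARA binds with RXR, was in none of these windows and in 0.0335% of all windows, and a looser form with any base at the fourth place of each copy was also in none, against 0.338%. The D-box, a clock output element searched in 2 forms, was in none of them, against 0.819% and 0.113% of all windows. TATAAA was found in the *Acot4* window alone, nearest the start at 151 to 146 bases before it on the plus strand with 1 more copy there and 1 on the minus strand, against 12.4% of all windows. The *Acot12* window was 68.4% G and C, and those of *Acot1*, *Acot2*, *Acot3* and *Acot4* were 48.8%, 50.4%, 45.2% and 42.4%, against a median of 52.4% over all windows. All searches took exact matches only, so a stretch that differs from an element by 1 letter was not counted. These are descriptions of letters in the windows, and they say nothing of binding.

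Levels between genes were compared per kb of exon. In SPF WT livers *Acot13* had the highest level, with a median of 66.6 CPM per kb, then *Acot12* with 48.9, *Acot4* with 9.56, *Acot8* with 6.90, *Acot1* with 5.94, *Acot3* with 1.86 and *Acot2* with 1.23. *Acot13* and *Acot12* together made up most of the summed level, with median shares of 47.9% and 36.8%. Only the step from *Acot12* to *Acot4* was free of overlap between libraries in SPF WT. *Acot13* was above *Acot12* in 18 of 18 libraries, while *Acot4* was above *Acot8* in 14, *Acot8* above *Acot1* in 11 and *Acot3* above *Acot2* in 10 of 18, and the ranges of each of these pairs overlapped. In GF LKO livers the order of the lower 5 was *Acot8* (5.20 CPM per kb), *Acot4* (2.68), *Acot1* (2.41), *Acot2* (0.843) and *Acot3* (0.0539), and *Acot3* was below *Acot2* in 18 of 18 libraries. The summed level of the 7 genes had a median of 138 CPM per kb in SPF WT, 112 in SPF LKO, 164 in GF WT and 121 in GF LKO.

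**Figure D1:**
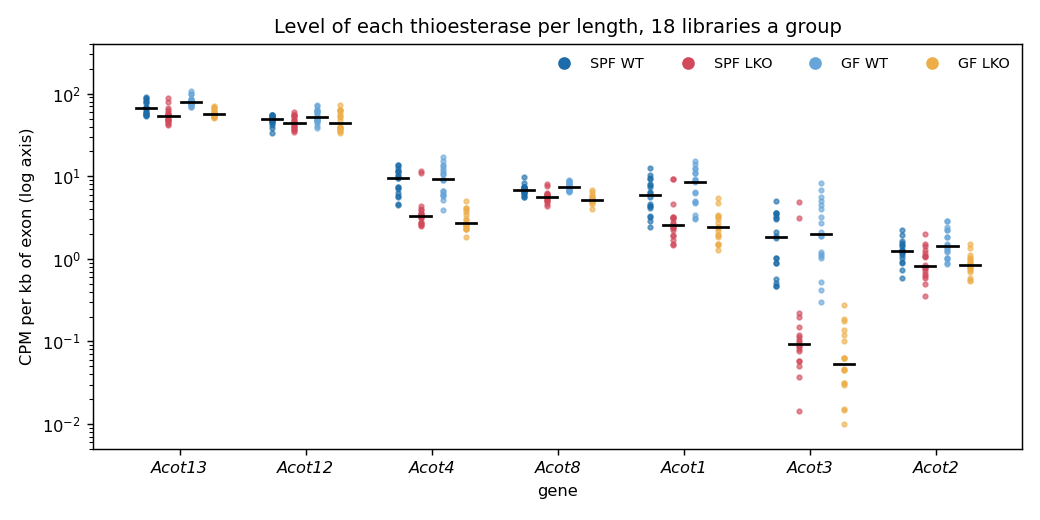
Level of each thioesterase in CPM per kb of exon on a log axis, by gene and group. Each point is 1 of 18 libraries and each black bar the group's median, and the GF LKO library with no *Acot3* count is drawn at a floor value. *Acot13* and *Acot12* lie above the other genes in every group, and *Acot3* is the gene whose WT and LKO points lie farthest apart.

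The first comparison asked how loss of the liver clock changed these genes in mice with a microbiota. Pooled over ZT in SPF livers, 5 of the 7 members were lower in LKO than in WT, none was higher, and *Acot2* and *Acot12* did not pass the test. Over all 13159 genes tested, 11.5% were called lower. With the 4 libraries left out, 6 of 7 were called lower against 14% of all genes tested, with *Acot2* added. The median log2 fold change was -0.42 over the members and -0.0054 over all genes tested. Without only the 2 libraries labelled SPF LKO that were like WT, the *Acot3* value below was -4.37, close to that without all 4.

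*Acot3*, a peroxisomal enzyme for long-chain acyl-CoA, differed most. Its levels in SPF WT ran from 1.60 to 17.2 CPM with a median of 6.39, and in SPF LKO from 0.0488 to 16.8 CPM with a median of 0.323. Of the 18 SPF LKO libraries, 16 lay below the lowest SPF WT library, and the other 2, at 16.8 and 10.7 CPM, were the 2 libraries that were like WT across genes. With them the log2 fold change was -2.01 ± 0.57 (SE), a 4.02-fold lower level with an adjusted p of 0.00806 by edgeR. Without the 4 libraries it was -4.43 ± 0.36, 21.5-fold lower, with an adjusted p of 2.37e-12, and the groups no longer overlapped, as for 1.5% of the 13125 genes with at least 10 counts in 18 of the 36 libraries. *Acot3* passed the filter on low counts through its WT libraries, since its median count was 121.5 in SPF WT and 7.0 in SPF LKO.

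*Acot4*, the succinyl-CoA enzyme, ran from 30.3 to 92.5 CPM (median 63.8) in SPF WT and from 16.9 to 76.6 CPM (median 22.2) in SPF LKO. Again 16 of 18 SPF LKO libraries lay below all SPF WT libraries, and the 2 that did not were the same 2 libraries, at 76.6 and 73.5 CPM. Its log2 fold change was -1.13 ± 0.20 (2.19-fold lower, adjusted p 3.46e-05 by edgeR) with all libraries and -1.52 ± 0.13 (2.86-fold lower, adjusted p 8.39e-12) without the 4. *Acot1*, the cytosolic long-chain enzyme, ran from 9.62 to 49.4 CPM (median 23.3) in SPF WT and from 5.79 to 36.7 CPM (median 9.98) in SPF LKO, with 8 LKO libraries below all WT libraries. It was 1.91-fold lower (log2 -0.93 ± 0.24, adjusted p 0.00350 by edgeR), and 2.53-fold lower without the 4 libraries (log2 -1.34 ± 0.19, adjusted p 9.46e-07).

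The mitochondrial member *Acot2* had few counts, 15 to 88 per library in SPF livers. Its level was 1.27 to 4.91 CPM (median 2.70) in SPF WT and 0.783 to 4.33 CPM (median 1.80) in SPF LKO, with a log2 fold change of -0.42 ± 0.17 and an adjusted p of 0.0748 by edgeR. Without the 4 libraries it was called, at -0.58 ± 0.17 with an adjusted p of 0.00740. *Acot8*, the broad peroxisomal thioesterase, and *Acot13* moved less. *Acot8* had a median of 13.8 CPM (11.1 to 19.6) in SPF WT and 11.3 CPM (8.81 to 16.2) in SPF LKO, 1.21-fold lower (adjusted p 0.00275 by edgeR). *Acot13* had a median of 49.6 CPM (39.8 to 67.5) in SPF WT and 40.4 CPM (31.1 to 65.99) in SPF LKO, 1.23-fold lower (adjusted p 0.0120 by edgeR). *Acot12*, the acetyl-CoA hydrolase, had a median of 161 CPM (110 to 182) in SPF WT and 147 CPM (112 to 198) in SPF LKO, with a log2 fold change of -0.10 ± 0.07 and an adjusted p of 0.375 by edgeR. Its groups overlapped throughout. Leaving out all libraries numbered replicate 3 lowered the count of members called to 3, with *Acot3* (adjusted p 0.130 by edgeR) and *Acot13* (0.123) lost, and without those numbered replicate 1 *Acot3* was lost (0.0697).

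**Figure D2:**
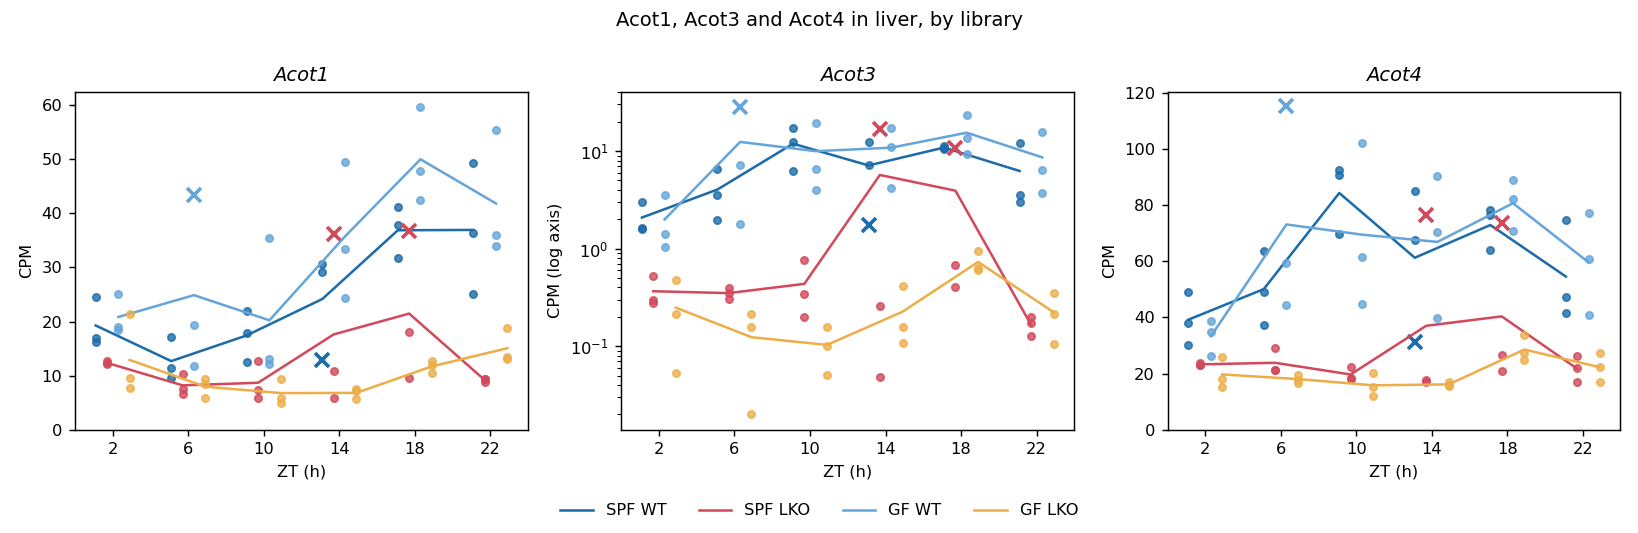
CPM of *Acot1*, *Acot3* (log axis) and *Acot4* against ZT in hours. Points are single livers, lines join the means of 3 livers per group and ZT, and crosses mark the 4 libraries that went against their labels. The SPF LKO crosses lie among the WT points, and the GF LKO library with no *Acot3* count is drawn at a floor value.

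In germ-free mice the same comparison asked whether the genotype difference was present without a microbiota. In GF livers 6 of the 7 members were lower in LKO, none was higher, and *Acot12* did not pass the test, against 15.2% of the 12662 genes tested that were called lower. Leaving out the GF WT ZT6 replicate 3 library also gave a count of 6, against 14.6% of all genes. *Acot3* ran from 1.03 to 28.2 CPM (median 6.89) in GF WT and from 0 to 0.948 CPM (median 0.185) in GF LKO. All 18 GF LKO libraries lay below all 18 GF WT libraries, as for 1.65% of the 12634 genes with at least 10 counts in 18 of the 36 libraries. The fitted log2 fold change was -5.12 ± 0.44 (adjusted p 2.79e-12 by edgeR). Its size depends on few reads in GF LKO, where the median count was 3.5. *Acot3* passed the filter on low counts, and the rule of 10 counts in 18 libraries, through GF WT. Its counts there ran from 16 to 490.

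*Acot4* ran from 26.3 to 115 CPM (median 61.2) in GF WT and from 12.1 to 33.8 CPM (median 17.9) in GF LKO, 3.15-fold lower (log2 -1.66 ± 0.16, adjusted p 7.65e-11 by edgeR). *Acot1* ran from 11.8 to 59.7 CPM (median 33.7) in GF WT and from 5.01 to 21.4 CPM (median 9.43) in GF LKO, 3.14-fold lower (log2 -1.65 ± 0.21, adjusted p 7.35e-08 by edgeR). In *Acot4*, 15 of 18 GF LKO libraries lay below all GF WT libraries, and in *Acot1* 12 did. *Acot2* ran from 1.93 to 6.38 CPM (median 3.13) in GF WT and from 1.17 to 3.33 CPM (median 1.85) in GF LKO, 1.82-fold lower (adjusted p 4.27e-05 by edgeR). *Acot8* and *Acot13* were 1.43-fold and 1.38-fold lower, with adjusted p of 3.48e-09 and 1.40e-08 by edgeR, and in each of them 16 of 18 GF LKO libraries lay below all GF WT libraries. *Acot12* had medians of 171 CPM in GF WT and 146 CPM in GF LKO, with a log2 fold change of -0.16 ± 0.10 and an adjusted p of 0.271 by edgeR. With ZT as an additional factor in the fit, *Acot12* was called lower in GF LKO, at a log2 fold change of -0.18 and an adjusted p of 0.000974 by edgeR.

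**Figure D3:**
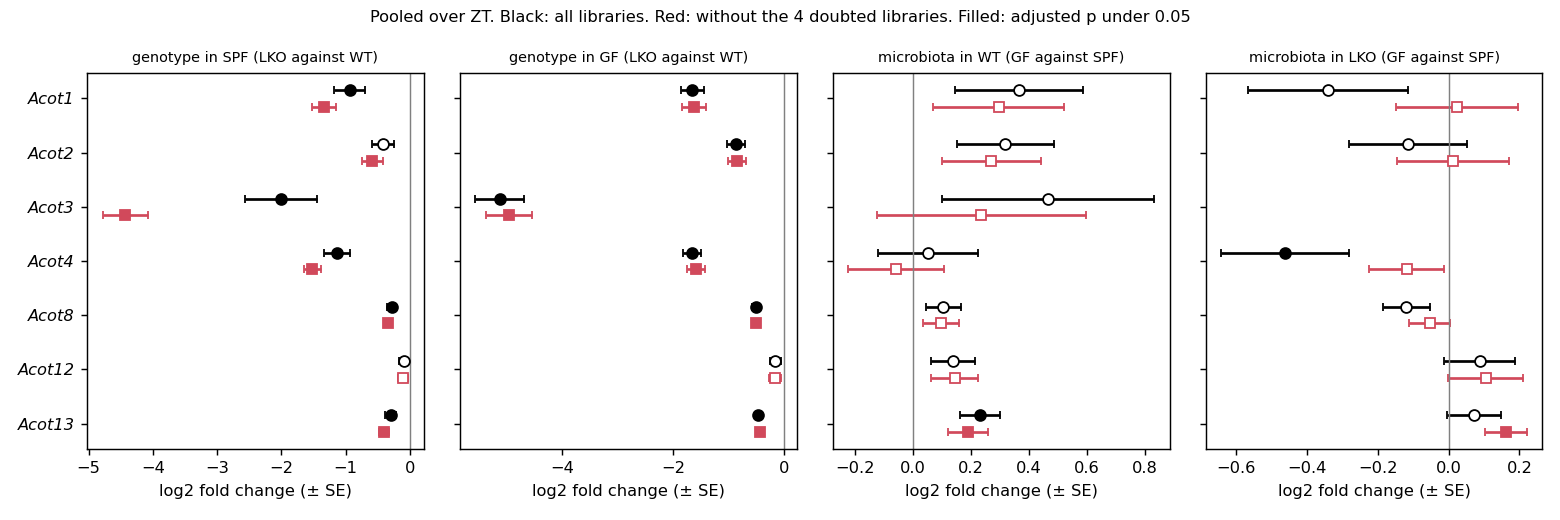
Log2 fold change ± SE of each member pooled over ZT, in 4 comparisons, with its own scale in each panel. Black circles use all libraries, red squares leave out the 4 libraries that went against their labels, and filled symbols have an adjusted p under 0.05. *Acot3* in SPF livers moves from -2.01 to -4.43, and the microbiota values lie within 1 log2 unit of 0.

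Few members differed by microbial status. In WT livers 1 of 7 members was called between GF and SPF, against 31.8% of the 12776 genes tested. This was *Acot13*, higher in GF at a median of 58.8 CPM (51.6 to 80.3) than in SPF at 49.6 CPM (39.8 to 67.5), 1.17-fold (log2 0.23 ± 0.07, adjusted p 0.0111 by edgeR, and 0.0313 without the 4 libraries). The groups overlapped, and leaving out the libraries numbered replicate 2 or replicate 3 ended the call, with adjusted p of 0.0673 and 0.155 by edgeR. The other 6 members had log2 fold changes of 0.052 to 0.47 with adjusted p of 0.140 to 0.843 by edgeR, and those of *Acot3* and *Acot1*, 0.47 ± 0.37 and 0.36 ± 0.22, had the widest errors.

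In LKO livers 1 of the 6 members tested was called, against 36.4% of the 13010 genes tested. *Acot4* was lower in GF LKO (median 17.9 CPM) than in SPF LKO (median 22.2 CPM), with a log2 fold change of -0.46 ± 0.18 and an adjusted p of 0.0426 by edgeR. Without the 2 libraries like WT it was -0.12 ± 0.11 with an adjusted p of 0.402, and each of the 2 alone was enough to end the call. In that fit *Acot13* was called instead, at 0.16 ± 0.06 with an adjusted p of 0.0312, against 36.7% of all genes. With all libraries, *Acot1*, *Acot2*, *Acot8*, *Acot12* and *Acot13* had log2 fold changes of -0.34 to 0.087 and adjusted p of 0.165 to 0.621 by edgeR. *Acot3* was too low in LKO livers to pass the filter. Without the filter its log2 fold change was -2.66 (adjusted p 0.00359 by edgeR) with all libraries and -0.27 (adjusted p 0.624) without the 2.

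The test of whether the genotype difference depended on the microbiota used all 72 libraries. It called *Acot3* among the 7 members, at a difference of log2 fold changes of -3.12 ± 0.79 (GF minus SPF) and an adjusted p of 0.0464 by edgeR, against 0.438% of the 13484 genes tested. Without the 2 libraries like WT the difference was -0.77 ± 0.64 with an adjusted p of 0.996, and leaving out either alone also ended the call (0.319 and 0.176). The other 6 members had differences of -0.73 to -0.068 with adjusted p of 0.415 to 0.987 by edgeR.

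Genotype differences were then read at each ZT, with 3 livers per group. The 12 libraries of a ZT were fitted together and shared 1 estimate of the spread. The GF tests at ZT14 and ZT18 thus also took in the spread of the SPF libraries there that went against their labels. In GF livers *Acot3* was called at 5 of 6 ZT, *Acot4* and *Acot1* at 5 of 6, *Acot2* and *Acot8* at 2, *Acot13* at 1 and *Acot12* at none, all lower in LKO. Of all genes, the share called lower in GF was 1.92%, 6.07%, 6.79%, 3.18%, 4.28% and 2.5% from ZT2 to ZT22. Called in either direction in GF at ZT14 were 813 of 13317 genes, and 1839 of 13485 without the 4 libraries. At ZT18 these were 1124 of 13326 genes and 1492 of 13547. In SPF livers the counts were 4 for *Acot3*, 4 for *Acot4*, 1 each for *Acot1*, *Acot2* and *Acot13*, and none for *Acot8* and *Acot12*, against 3.24%, 3.39%, 6.05%, 0%, 0.015% and 1.81% of all genes called lower in the same order of ZT. At ZT14 and ZT18, where the libraries like WT sit, edgeR called no member in SPF, with unadjusted p under 0.05 for 0 and 2 members and 0 and 0 members called by DESeq2. When the 4 libraries were left out, 4 members were called lower at each of these ZT, against 2.69% and 2.53% of all genes. These were *Acot1*, *Acot2*, *Acot3* and *Acot4* at ZT14 and *Acot1*, *Acot3*, *Acot4* and *Acot13* at ZT18. Of the 31 calls by genotype at single ZT, 13 were kept whichever of the 12 libraries of that ZT was left out, among them *Acot3* and *Acot4* at ZT10 under both microbial states and *Acot1* at ZT22 under both. The other 18 were lost in at least 1 of the 12 fits. *Acot2* in GF at ZT22 was lost in 11, *Acot4* in GF at ZT14 and in SPF at ZT6 in 8 each, and *Acot1* in GF at ZT14, *Acot4* in SPF at ZT2 and *Acot3* in SPF at ZT6 in 6 each. In GF livers at ZT6, *Acot1* was called with all libraries (adjusted p 0.0159 by edgeR) but not without GF WT replicate 3 (0.0515) or without GF LKO replicate 1 (0.0744).

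*Acot3* at ZT10 shows the size of the change in single livers. The 3 SPF WT livers had 6.22, 12.3 and 17.2 CPM and the 3 SPF LKO livers 0.200, 0.342 and 0.765 CPM, a log2 fold change of -4.73 ± 0.64 (adjusted p 0.000185 by edgeR). The 3 GF WT livers had 3.98, 6.58 and 19.4 CPM and the 3 GF LKO livers 0.0511, 0.101 and 0.157 CPM, a log2 fold change of -6.50 ± 0.82 (adjusted p 7.92e-05 by edgeR). No LKO liver at ZT10 reached the lowest WT liver under either microbial status. At ZT10 the LKO livers held 4 to 17 *Acot3* counts in SPF and 1 to 3 in GF, and the SPF LKO livers at ZT2 held 6 to 12. The size of these log2 fold changes depends on those few reads. *Acot3* passed the filter on low counts through its WT livers. At ZT2, when *Acot3* was lowest in WT, the SPF WT livers had 1.60, 1.61 and 3.04 CPM and the SPF LKO livers 0.279, 0.2998 and 0.519 CPM, and the log2 fold change was -2.50 ± 0.56 (adjusted p 0.0159 by edgeR).

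For *Acot4* at ZT10 the SPF WT livers had 69.7, 90.8 and 92.5 CPM and the SPF LKO livers 18.1, 18.6 and 22.4 CPM (log2 -2.10 ± 0.25, adjusted p 6.75e-05 by edgeR). At ZT14 the SPF WT livers had 31.2, 67.5 and 85.1 CPM and the SPF LKO livers 16.9, 17.6 and 76.6 CPM. The lowest WT value and the highest LKO value there belong to libraries that went against their labels, and the log2 fold change was -0.74 ± 0.53 with all of them and -2.15 ± 0.28 without the 2. *Acot1* at ZT22 had 25.1, 36.3 and 49.4 CPM in SPF WT and 8.84, 9.29 and 9.45 CPM in SPF LKO, a log2 fold change of -2.02 ± 0.25 (adjusted p 0.000265 by edgeR). At ZT2 its SPF WT livers had 16.2, 17.02 and 24.6 CPM and its SPF LKO livers 12.2, 12.3 and 12.6 CPM, a log2 fold change of -0.66 ± 0.29 that was not called (adjusted p 0.209 by edgeR).

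**Figure D4:**
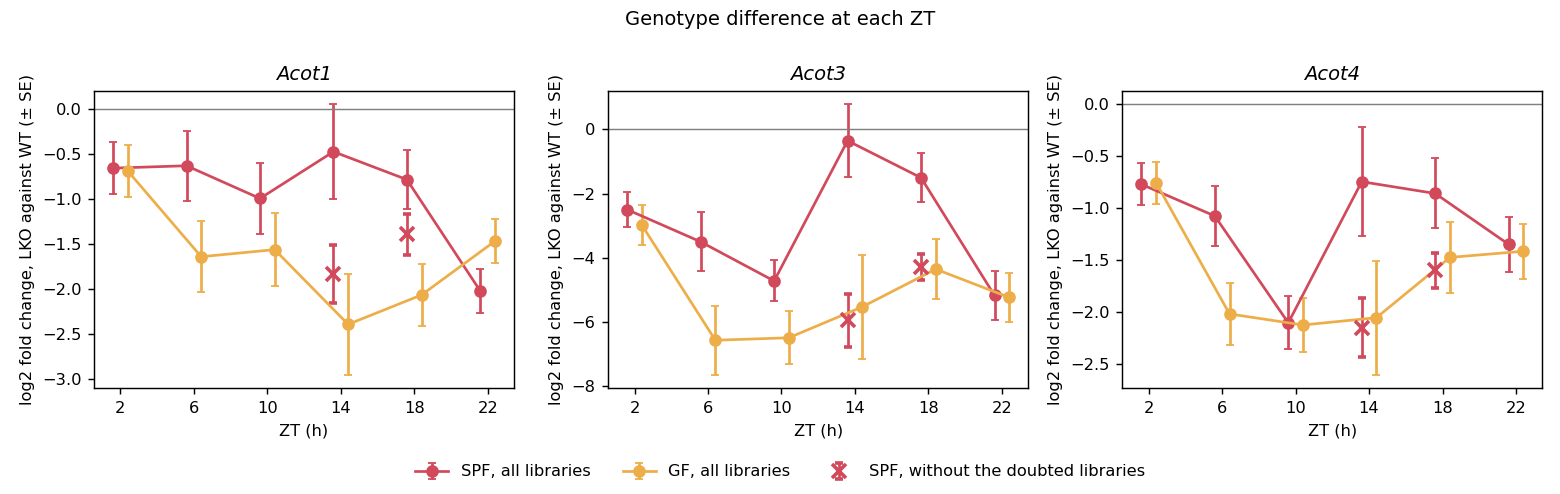
Log2 fold change of LKO against WT ± SE at each ZT (hours) for *Acot1*, *Acot3* and *Acot4*. Lines with circles use all libraries in SPF (red) and GF (yellow) mice, and red crosses give SPF mice at ZT14 and ZT18 without the libraries that went against their labels. With all libraries the SPF values of *Acot3* rise to -0.35 at ZT14, and without those libraries the value is -5.95.

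Change over the day was tested within each group of 18 libraries. In SPF WT livers *Acot1* was the member called (adjusted p 0.0175 by edgeR), against 7.06% of 13907 genes. Without the libraries numbered replicate 1 or replicate 2 it was not called (0.122 and 0.337), and *Acot3* was called in the first of these fits (0.0415). The mean of *Acot1* rose from 12.7 ± 3.91 CPM (SD, n = 3) at ZT6 to 36.9 ± 12.1 CPM at ZT22, 2.91 times, and ZT18 was at 36.9 ± 4.79 CPM. *Acot3* and *Acot4* had adjusted p of 0.0894 and 0.139 by edgeR there, and 0.0273 and 0.0264 without the 4 libraries. In GF WT livers *Acot12* was the member called (adjusted p 0.00238 by edgeR), against 13.6% of 13203 genes, and it was not called without replicate 2 (0.104). *Acot1* in GF WT, with its highest mean of 49.97 ± 8.84 CPM at ZT18, had an adjusted p of 0.106, and 0.0119 once the GF WT ZT6 replicate 3 library was left out, whose 43.4 CPM stood beside 11.8 and 19.4 CPM in its group.

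*Acot12* was called over time in LKO livers of both microbial states. Its mean in GF LKO was 220 ± 20.04 CPM at ZT10 and 116 ± 5.37 CPM at ZT22, 1.89 times apart (adjusted p 3.98e-06 by edgeR, against 26.7% of 13494 genes). In SPF LKO it was 187 ± 9.95 CPM at ZT10 and 121 ± 8.77 CPM at ZT22 (adjusted p 0.0180 by edgeR, against 5.30% of 14028 genes), a call lost without any of the 3 replicate numbers (0.136 to 0.291). In GF WT it was 220 ± 17.8 CPM at ZT14 and 145 ± 16.7 CPM at ZT2. In SPF WT the highest and lowest means were 175 ± 12.8 CPM at ZT10 and 134 ± 23.4 CPM at ZT18, and the test did not pass (adjusted p 0.351 by edgeR).

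In GF LKO livers 4 members were called over time. Beside *Acot12* these were *Acot4* (adjusted p 0.0179 by edgeR), *Acot1* (0.0207) and *Acot3* (0.0327). *Acot4* was highest at ZT18, at 28.6 ± 4.70 CPM, and lowest at ZT10, at 15.8 ± 3.996 CPM. *Acot3* was highest at ZT18 too, with 0.608, 0.635 and 0.948 CPM, against 0.0511, 0.101 and 0.157 CPM at ZT10, all from 18 counts or fewer per library. Its counts were 11 to 18 at ZT18 and at most 9 at every other ZT. It passed the filter on low counts through ZT18 alone, the time at which it was highest. The *Acot3* call was lost whichever of the 3 replicate numbers was left out (adjusted p 0.138 to 0.171 by edgeR). Leaving out the libraries numbered replicate 2 or replicate 3 lowered the count called in GF LKO from 4 to 1. With all libraries *Acot2*, *Acot8* and *Acot13* were called over time in no group, and without the 4 libraries *Acot2* was called in SPF LKO (adjusted p 0.0393 by edgeR). With no filter on low counts *Acot2* was called in SPF WT (0.0485), SPF LKO (0.0239) and GF WT (0.00538). The same setting gave *Acot3* in SPF LKO an adjusted p of 1.6e-74 by edgeR, and with the filter *Acot3* was not called there. Calls made with no filter are therefore uncertain.

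The direct test of a difference in time course called none of the 7 members, by genotype in SPF or GF mice or by microbiota in WT or LKO mice. Unadjusted p was under 0.05 for 2, 1, 1 and 2 members in that order, DESeq2 called 0 members in each, and over all genes edgeR called 0.305%, 3.48%, 0.0071% and 0.0492%. The time course by genotype in SPF mice, tested without the 4 libraries, was called for *Acot2* (adjusted p 0.0155 by edgeR) and *Acot4* (0.0391), against 1.33% of all genes.

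**Figure D5:**
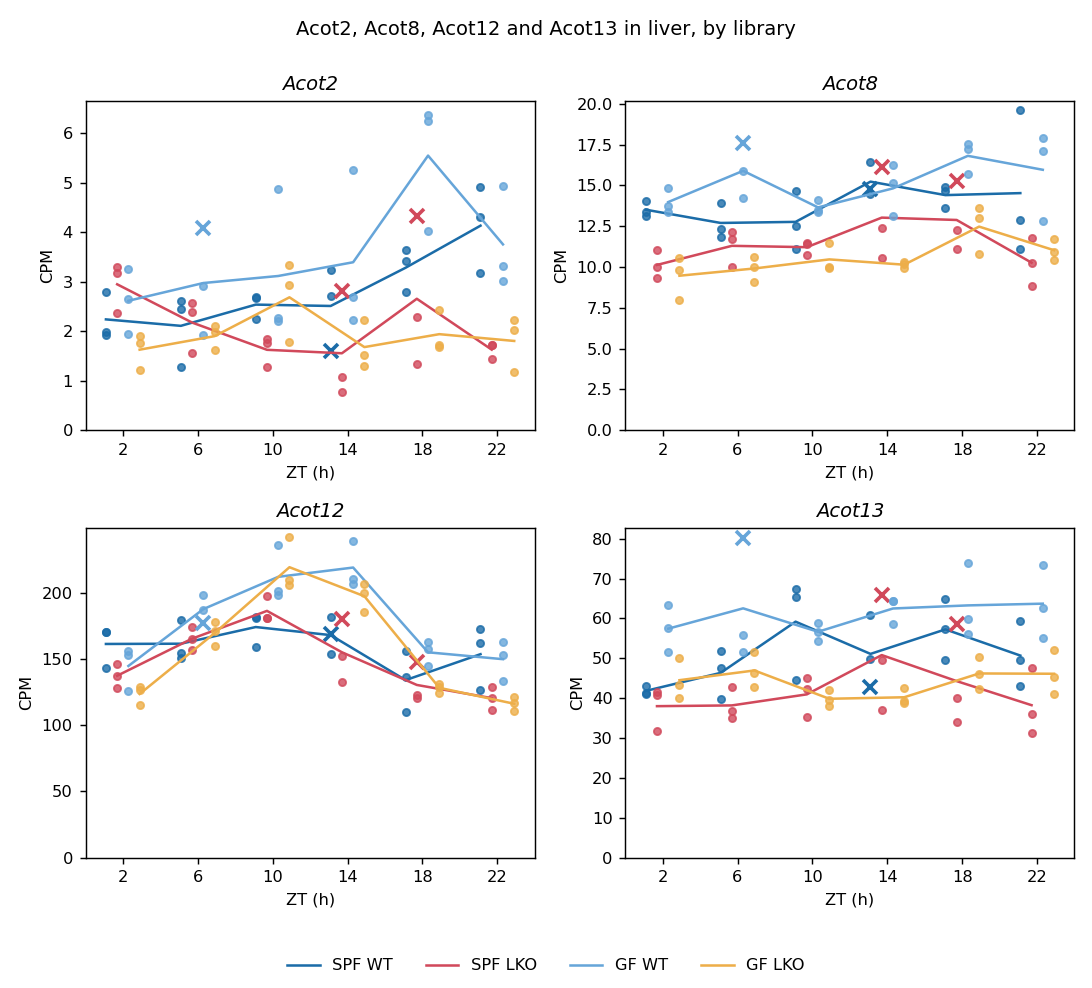
CPM of *Acot2*, *Acot8*, *Acot12* and *Acot13* against ZT in hours, on axes that start at 0. Points are single livers, lines join the means of 3 livers per group and ZT, and crosses mark the 4 libraries that went against their labels. *Acot12* peaks at ZT10 or ZT14 in every group, with LKO and WT lines close together, and the GF LKO lines of *Acot8* and *Acot13* lie below the GF WT lines.

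Over the 24 group means the members outside *Acot12* ran alike. As a description, Spearman's rho was 0.97 between *Acot3* and *Acot4*, 0.89 between *Acot1* and *Acot8* and 0.57 to 0.86 for the other pairs without *Acot12*, and -0.14 to 0.18 for the 6 pairs with *Acot12*. The 24 points share 2 genotypes, so a difference by genotype alone gives a high rho. Among the 10629 genes whose mean log2 CPM was 1 or more, those most like *Acot3* were *Slc16a5* (0.96), *Hadh* (0.95) and *Abhd6* (0.94), and those most like *Acot4* were *Gda* (0.94), *Hadh* (0.93) and *Chd3* (0.93). *Hsdl2* (0.95), *Gm4956* (0.94) and *Gm19522* (0.94) were most like *Acot1*. *Ugt1a5* (0.84), *Man1a* (0.82) and *Cat* (0.80) were most like *Acot2*. *Serpina3m* (0.92), *Slc25a20* (0.91) and *Chrna2* (0.90) were most like *Acot8*. *Sclt1* (0.91), *Cpt1a* (0.90) and *Akap7* (0.87) were most like *Acot12*. *Gchfr* (0.95), *Atg3* (0.95) and *Sdhd* (0.93) were most like *Acot13*.

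Other thioesterases gave a mixed picture. Of 9 listed, 6 were tested by genotype in SPF and none was called with all libraries, against 23.1% of all genes, with 3 at an unadjusted p under 0.05 by edgeR. In GF livers *Acot6*, a neighbour in the chromosome 12 cluster, was 1.93-fold higher in LKO (1.21 ± 0.55 CPM in WT, 2.32 ± 0.64 in LKO, SD over 18 libraries, adjusted p 2.57e-05 by edgeR), opposite to *Acot1* to *Acot4*, against 30.8% of all genes called in either direction. *Them5*, a mitochondrial thioesterase, was higher in GF LKO, with median counts of 3.5 in GF WT and 34 in GF LKO (log2 2.84 ± 0.21, adjusted p 8.79e-14 by edgeR), and it passed the filter through GF LKO alone. *Acot9*, a mitochondrial enzyme, was 1.18-fold higher (adjusted p 0.0280) and *Acot7*, a cytosolic one, 1.41-fold lower (3.95e-05) by edgeR. *Acot11*, *Them4* and *Baat*, the last of which conjugates bile acids, had adjusted p of 0.0615 to 0.842 by edgeR. *Acot5* had no count in any of the 72 libraries, and *Acot10* had at most 2. By genotype in SPF without the 4 libraries, *Acot6* was called higher and *Acot7* and *Them4* lower.

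By microbiota, *Acot7* (1.25-fold) and *Them4* (1.24-fold) were higher in GF than in SPF WT livers, with adjusted p of 0.00322 and 0.00614 by edgeR. In LKO livers *Them5* (4.58-fold, 2.38e-11), *Acot6* (1.43-fold, 0.00672), *Them4* (1.29-fold, 0.00356) and *Baat* (1.10-fold, 0.0361) were higher in GF, with adjusted p by edgeR in parentheses. Here too *Them5* passed the filter on low counts through GF LKO alone. Of all genes tested, 31.8% were called in WT and 36.4% in LKO livers, in either direction. In the test of whether the genotype difference depended on the microbiota, edgeR called 0 of the 7 tested, with 3 at an unadjusted p under 0.05.

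Genes of the surrounding pathway were counted from lists. Here and below, folds of list genes use all libraries, with the 2 SPF LKO libraries like WT among them. Whether a fold differs in size between SPF and GF cannot be read from them. Of all genes tested, 11.6% were higher and 11.5% lower in SPF LKO, 15.6% and 15.2% in GF LKO, 14.2% and 17.7% in GF against SPF among WT, and 18.1% and 18.4% among LKO livers. Among acyl-CoA synthetases, which make the substrates of these enzymes, 5 of 16 tested were lower and 1 higher in SPF LKO, and 8 were lower and 1 higher in GF LKO, with median log2 fold changes of -0.087 and -0.18. With the 4 libraries left out, 8 were lower and 1 higher in SPF LKO. The higher gene was *Acsm2*, 2.56-fold in SPF (adjusted p 4.14e-07 by edgeR) and 3.29-fold in GF (1.71e-12). *Slc27a1*, a fatty acid transport protein, was 1.48-fold and 1.74-fold lower, *Acsm5* 1.27-fold lower in SPF and *Acsl1* 1.51-fold lower in GF. By microbiota 8 were higher and 1 lower in GF WT, led by *Acss2* (2.34-fold higher), *Acss3* (1.53-fold lower) and *Acsm2* (1.47-fold higher), and 7 were higher and 3 lower in GF LKO, led by *Acsm2* (1.91-fold higher), *Acss2* (1.69-fold higher) and *Acsl3* (1.36-fold higher). Of 7 tested genes for acyl-CoA binding and CoA hydrolysis, 1 was lower in SPF LKO (*Acbd5*, 1.16-fold) and 2 in GF LKO (*Acbd5*, 1.23-fold, and *Dbi*, 1.18-fold). Both microbiota comparisons had 2 higher in GF, *Dbi* (1.27-fold) and *Acbd6* (1.16-fold) in WT and *Nudt7* (1.32-fold) and *Dbi* (1.19-fold) in LKO.

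*Ppara* and its textbook targets were lower in LKO livers in most cases. Of the 30 genes, 22 were lower and 1 higher in SPF LKO, and 23 lower and 2 higher in GF LKO, with median log2 fold changes of -0.37 and -0.55 against -0.0054 and 0.0082 over all genes tested. Without the 4 libraries 23 were lower and 2 higher in SPF, and the medians were -0.43 in SPF and -0.54 in GF. *Cyp4a14* and *Cyp4a10*, fatty acid omega-hydroxylases, were 3.15-fold and 2.94-fold lower in SPF and 6.18-fold and 6.35-fold lower in GF. *Pdk4*, a kinase that slows glucose oxidation, was 2.96-fold higher in SPF LKO, and *Acaa1b*, a peroxisomal thiolase, was 3.25-fold lower in GF LKO. By microbiota 8 were higher and none lower in GF WT, with *Cyp4a10* at 1.51-fold, *Cyp4a14* at 1.48-fold and *Cyp4a31* at 1.48-fold. In LKO livers 3 were higher and 7 lower in GF, with *Acaa1b* 1.80-fold lower, *Cyp4a31* 1.78-fold higher and *Pex11a* 1.43-fold lower. The genotype difference depended on the microbiota for 2 of the 30, against 0.438% of all genes tested, *Acaa1b* (log2 -0.91 ± 0.17, adjusted p 0.00115 by edgeR) and *Ehhadh* (log2 -0.61 ± 0.14, adjusted p 0.0156).

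Of 19 clock genes, 4 were higher and 6 lower in SPF LKO. *Npas2* was 9.53-fold higher, *Nr1d1*, a BMAL1 target that encodes a repressor, 7.60-fold lower and *Ciart* 4.93-fold lower. In GF LKO 5 of 18 tested were higher and 6 lower, with *Ciart* 11.4-fold lower, *Npas2* 7.13-fold higher and *Nr1d1* 6.94-fold lower. Between GF and SPF WT livers edgeR called 0 of the 19, with 1 at an unadjusted p under 0.05, and DESeq2 called 0, while with ZT as an additional factor edgeR called 4. Between GF and SPF LKO livers 1 of 17 tested was higher and 4 lower in GF, with *Per3* 1.86-fold, *Nr1d2* 1.73-fold and *Arntl* 1.23-fold lower, and without the 2 libraries like WT 3 were lower and none higher.

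Sequence shared between genes limits how well the cluster is told apart. Of the 50-base windows of each gene's transcripts, 27.7% of *Acot2*, 21.3% of *Acot3*, 19.2% of *Acot1* and 13.4% of *Acot4* also occur in a transcript of another gene, most often *Acot1* for *Acot2*, against 9.77% of *Acot8*, 3.08% of *Acot12* and none of *Acot13*. Exons of other genes cover 20.6% of *Acot3* and 9.71% of *Acot4*, mainly the antisense gene *4732463B04Rik* (1 to 32 counts per library) and *Gm49366* (0 counts in every library), and exons of *Snx21* (73 to 230 counts per library) cover 12.3% of *Acot8*. Reads from such positions may have been left uncounted or placed on the partner, so the levels of *Acot1*, *Acot2*, *Acot3* and *Acot4* carry this uncertainty.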

How the data were processed

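Bulk RNA-seq counts from 72 mouse livers were analysed. The deposited table holds raw read counts per gene made by the authors. The submitters' processing notes name bcl2fastq, FastQC, MultiQC, STAR 2.6.1b, featureCounts 2.0.0 and mm10, the kit was stranded per the labels, and whether counting used strand is not given in the sources used here. Groups came from the sample titles, and replicates are separate mice. The total count per library was 17369927 to 22076113, which limits precision for *Acot2* and *Acot3*. No pair of libraries held identical counts. Of 55573 gene identifiers, 55394 were in GENCODE M21 (GRCm38), which gave names and positions.

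Tests were edgeR quasi-likelihood fits (edgeR 4.0.16, R 4.3.3) on the counts with TMM factors, edgeR's filter on low counts and Benjamini-Hochberg adjustment over all genes tested, calling at 0.05. The fits were tested on simulated counts. CPM are counts over TMM-scaled library totals, and CPM per kb divides by the exon length in the count table. Alternatives were DESeq2 (1.42.0), its size factors, no filter, ZT as a factor, a 24 h cosine, a replicate block, leaving out libraries, and leaving out the 4 libraries that went against their labels. Leaving out the SPF LKO libraries singly, and both together with no filter, was chosen after seeing the data.

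All 7 members were named, with *Arntl* and *Npas2*. All other thioesterases were named, and of each further list the 3 genes with the largest change among those called whose mean log2 CPM was 1 or more. For each member the 3 genes of highest Spearman's rho over the 24 group means were named. Members and lists were chosen with earlier results of these data known. Promoter letters came from the RefSeq table.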

Additional observations from a re-analysis of the deposited data

Results flagged for a closer look

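The genotype difference of *Acot3* differed between GF and SPF mice by a test of the difference itself (log2 -3.12, GF minus SPF, adjusted p 0.0464 by edgeR over 72 libraries). The 2 libraries labelled SPF LKO that were most like SPF WT held 16.8 and 10.7 CPM of *Acot3*, against at most 0.765 CPM in the other SPF LKO libraries. Without them the difference was -0.77 with an adjusted p of 0.996.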

How the results depend on the processing

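Under the alternatives other than leaving out a replicate number or a single library, 637 of the members' results kept their direction and side of the threshold, 44 newly passed it, 10 no longer passed it and 7 changed sign, none of the 7 called and all 7 in fits without the 2 SPF LKO libraries or the 4. Members called by genotype in SPF numbered 6 without those 2 or 4 libraries and 5 under the others, those in GF 6 to 7, and 3 to 6 and 6 to 6 when replicates were left out. The block on replicate number gave 2 members by microbiota in WT, 2 over time in SPF WT, 0 calls by microbiota in WT over the 6 ZT and 0 members for dependence on the microbiota. The numbers did not pair the mice, since 3 to 6 of 18 same-numbered pairs had r over 0.1 and 3 to 7 correlated best with their own number. Dependence on the microbiota also had 0 members with no filter, without the 4 libraries and without the 2 SPF LKO libraries. With no filter, members called over time were 4 in SPF WT, 5 in SPF LKO and 5 in GF WT. In that setting time courses gave 4 (genotype, SPF), 3 (genotype, GF), 3 (microbiota, WT) and 3 (microbiota, LKO). Its calls over the 6 ZT were 17 (genotype, SPF), 5 (microbiota, WT) and 9 (microbiota, LKO). This setting gave 24 of the 44 results that newly passed the threshold. Its adjusted p of *Acot3* for the SPF time course by genotype was 1.44e-42 by edgeR. With the filter the lowest of any member in that test was 0.535, so the calls with no filter are uncertain. Without the 4 libraries, calls over time were 3 in SPF WT, 2 in SPF LKO and 2 in GF WT, the SPF time course by genotype 2, and SPF genotype calls over the 6 ZT 19. DESeq2 gave 3 members over time in SPF WT and 2 microbiota calls over the 6 ZT in LKO, and the cosine 2 in SPF LKO, 2 in GF WT and 1 for the LKO time course by microbiota. Leaving out replicates gave 0 to 2 members by microbiota in WT, 0 to 0 in LKO, 0 to 0 for the dependence, 0 to 1 over time in SPF WT, 0 to 0 in SPF LKO, 0 to 4 in GF WT, 1 to 3 in GF LKO, and over the 6 ZT 9 to 15 by genotype in SPF, 17 to 23 in GF, 0 to 1 by microbiota in WT and 0 to 1 in LKO. By microbiota in WT, *Acot4* changed sign without the 4 libraries (-0.058) and when replicates were left out (-0.18 to 0.26), as *Acot3* did (-0.068 to 0.81). By microbiota in LKO, *Acot2* (0.011) and *Acot1* (0.024) changed sign without the 2 SPF LKO libraries or the 4, at 0.023 and 0.035 with no filter as well, and *Acot13* when replicates were left out (-0.0023 to 0.17). Of the 3 genes most like a member, those shared with a ranking over the 72 libraries were 0 for *Acot2* and 1 for each of *Acot3*, *Acot4*, *Acot8* and *Acot12*. The cause of these changes was not tested. Depth limits *Acot3* in LKO livers, with a median of 7.0 counts in SPF and 3.5 in GF.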
